A study of Mus musculus with 2 samples.

Results

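The NRF2 and antioxidant defence genes described here are the 10 genes Nfe2l2, Keap1, Nqo1, Gclc, Gclm, Gsr, Hmox1, Srxn1, Txnrd1 and Cat. They were chosen by name, though with earlier results of these data known. On the array they are represented by 13 probes, found by the RefSeq transcript each probe was designed for, and all 10 genes are among the 16342 genes measured in the series. The study compared the livers of fasted mice with those of mice upon feeding, to find the hepatic genes and pathways that respond when nutrients are taken in by mouth. Each group was 1 single-colour Agilent array hybridised with RNA from a pool of the livers of 3 male mice. The fasting group is described as fasted for 16 h in one label and for 14 to 16 h overnight in another. The feeding group is described in one label as fed after such a fast and in another as having free access to food, so whether its mice had fasted before cannot be told from the labels. The paper words the comparison as one of fasted mice with fasted mice that were then fed. The labels give no strain, genotype, drug treatment or age. The study's methods name male C57BL/6J mice and transgenic lines on this background in general, and feeding was the labelled difference between the groups. Because each group is a single pool, the differences are given without a test or p-value, and the spread between mice is not known.

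NRF2, encoded by Nfe2l2, is a transcription factor that is held in the cytoplasm by KEAP1 and handed over to degradation. When oxidants or electrophiles modify KEAP1, NRF2 escapes, enters the nucleus and, paired with a small MAF protein, binds the antioxidant response element in front of its target genes. In liver these targets include the enzymes that make and recycle glutathione, the thioredoxin system, quinone reductase and heme oxygenase, which together limit damage from reactive oxygen and from drugs. NRF2 is controlled in large part at the level of the protein, which an RNA array does not measure.

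The core of the antioxidant response element is often written TGACNNNGC, and it is shown here because it is the sequence through which NRF2 reaches its targets. RefSeq promoter windows of the mouse assembly GRCm38.p6, from 250 bases before to 50 bases after an annotated start, were given for 7 of the 10 genes and not for Gclc, Gsr or Hmox1. On either strand the letters occurred in a window of 4 genes, Nfe2l2, Gclm, Srxn1 and Txnrd1, and in 4 of the 9 windows of the 7 genes. They occurred in 12.4% of all 32851 windows, and in a window of 13.99% of the 27025 genes that had one. The match of Srxn1 lay after the start, and the other 3 lay before it. These stretches are given 5′ to 3′ on the strand of the gene, with the match in capitals. For Nfe2l2 the match reads as the motif and begins 240 bases before the start, while for Gclm (134 bases) and Txnrd1 (92 bases, at 1 of 3 annotated starts) it reads as the reverse complement.
Nfe2l2, chr2:75704875-75704913, minus strand: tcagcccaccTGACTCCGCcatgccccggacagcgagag
Gclm, chr3:122245403-122245451, plus strand: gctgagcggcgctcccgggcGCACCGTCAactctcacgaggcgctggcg
Txnrd1, chr10:82859094-82859142, plus strand: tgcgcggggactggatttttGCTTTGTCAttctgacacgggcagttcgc
The related AP-1 motif TGANTCA, whose letters can overlap the core, occurred in 7.81% of all windows and, among the genes described here, in that of Srxn1 only, at 2 places. No binding was measured, so a match describes the sequence and no more.

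All 13 probes were well above background on both arrays, the scanner software's call for a spot that stands clear of its surroundings, and no spot was saturated. Their processed signals, which are linear intensities after background subtraction, ran from 157.7 to 34958, against a local background of 20 to 43 around the same spots. A difference is given on the log2 scale as feeding minus fasting, after quantile normalization, which gives both arrays the same distribution of values, so that 1 stands for 2-fold higher and -1 for 2-fold lower upon feeding. Its error is propagated from the error the software gives for each spot, which was 10% to 10.1% of the signal. It came to 0.20 to 0.21 for every probe, bright or dim. This error is therefore nearly a constant and not a spread measured for each gene. Replicate spots of other probes gave a smaller SD of a difference, 0.10 for the brightest of 3 equal groups of genes, which held 10 of the probes, and 0.14 for the middle group, which held the other 3. None of the 13 probes was spotted more than once, and both errors cover the measurement on the array only.

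None of the 10 genes, each taken by its brightest probe, was past 2-fold, the threshold of the study. Of all 16342 genes measured 7.91% were, 3.29% upward and 4.62% downward, and 2.87% were past 3-fold. The 10 differences ran from -0.21 to 0.74 with a median of 0.19, beside a median of 0.0 over all genes. Without regard to sign their median was 0.21, beside 0.26 over all genes. It was 0.25 over the brightest of the 3 equal groups of genes, which held 8 of the 10. Over the 14514 genes that were well above background on both arrays it was 0.28. By sign, 6 were higher and 4 lower upon feeding. With each array scaled by its median instead, 9 were higher and 1 lower, and the median of all genes was then 0.09. At 1.5-fold, which 21.1% of all genes passed and 10.5% passed upward, Nfe2l2 was the only one of the 10.

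**Figure D1:**
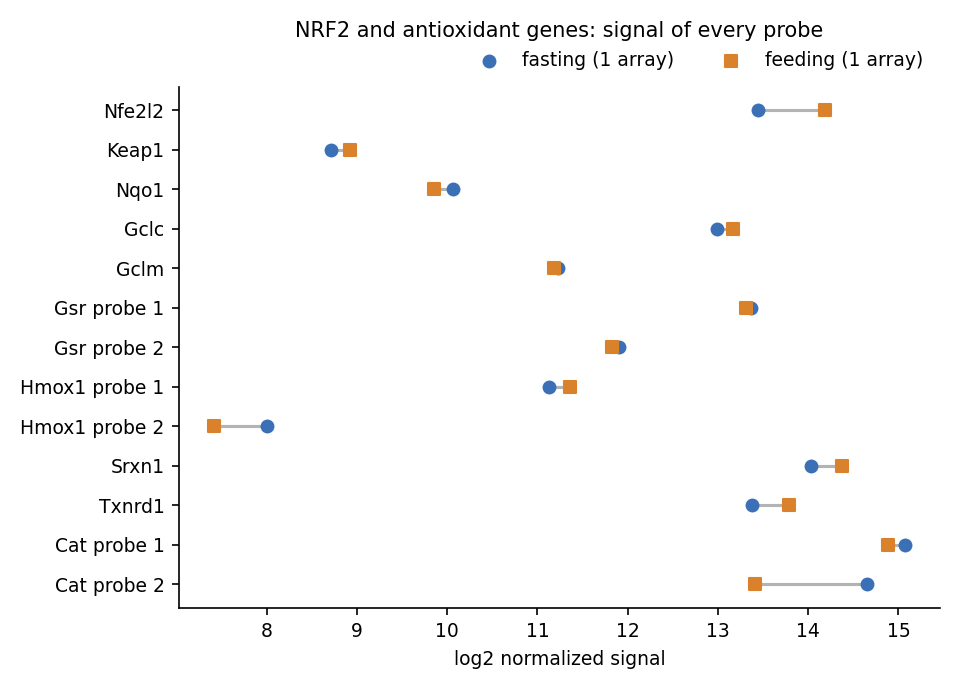
Log2 normalized signal (horizontal axis) of each of the 13 probes for the 10 genes, with a circle for the fasting array, a square for the feeding array and a grey line joining them; probe 1 is the brighter probe of a gene. The widest gaps are those of the dimmer Cat probe, at 14.65 upon fasting and 13.41 upon feeding, and of Nfe2l2, at 13.44 and 14.19, and levels of different probes are not comparable with each other.

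Nfe2l2 had the largest difference among the 10 genes. Its probe had a processed signal of 11090 on the fasting array and 18596 on the feeding array. It was higher upon feeding under every scaling and background correction tried. The difference was 0.74 ± 0.20 (error of the spots), or 1.67-fold. Among all genes measured 6.71% had a larger increase, and among the brightest of the 3 equal groups of genes 5.16% did. The share of all genes was 4.67% with either of 2 other scalings and 3.02% under another background correction, normexp. With each array scaled by its median the difference was 0.98, just under 2-fold, and it was 0.86 with scaling by the 75th percentile and 0.75 under the normexp correction.

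Keap1, which encodes the adaptor that targets NRF2 for degradation, gave 443.6 on the fasting array and 458.9 on the feeding array. The difference of 0.21 ± 0.20 is about the size of its error. It was between 0.10 and 0.28 under the scalings and background correction tried. The difference of Nfe2l2, in comparison, was 3.65 times its error, which covers the spots only and not the spread between mice.

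The thioredoxin enzymes came next in order of size. Txnrd1 encodes the cytosolic thioredoxin reductase, a selenoenzyme that uses NADPH to keep thioredoxin reduced, and its probe gave 10646 on the fasting array and 14027 on the feeding array, a difference of 0.40 ± 0.20. Srxn1 encodes sulfiredoxin, which restores peroxiredoxins that have been overoxidized by peroxide. Its signals were 16839 and 20961, a difference of 0.35 ± 0.20. Both were higher upon feeding under every scaling and background correction tried, from 0.35 to 0.63 for Txnrd1 and from 0.27 to 0.55 for Srxn1. Of all genes measured, 17.3% had a larger increase than Txnrd1 and 19.95% a larger one than Srxn1.

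The 3 glutathione genes differed little between the arrays. Gclc encodes the catalytic subunit of glutamate cysteine ligase, the rate-limiting enzyme of glutathione synthesis, and gave 8259 on the fasting array and 9164 on the feeding array, a difference of 0.18 ± 0.20. Gclm encodes the modifier subunit of the same enzyme, with signals of 2437 and 2279 and a difference of -0.04 ± 0.20. Gsr encodes glutathione reductase, which regenerates glutathione from its oxidized form. Its brighter probe had signals of 10537 and 10183 and its other probe 3863 and 3604, with differences of -0.05 ± 0.20 and -0.08 ± 0.20. After quantile normalization all 4 of these probes lay within their error of 0. The signs of Gclm and Gsr turned with the scaling, to 0.14 and 0.19 with scaling by the median. Gclc was then at 0.39, more than its error of 0.20.

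Nqo1 encodes NAD(P)H quinone dehydrogenase, a classical marker of NRF2 activity. Its signals, 1102 on the fasting array and 894.3 on the feeding array, gave a difference of -0.21 ± 0.20, and -0.07 with scaling by the median. It was lower upon feeding under every scaling and background correction tried, by little more than its error at most.

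**Figure D2:**
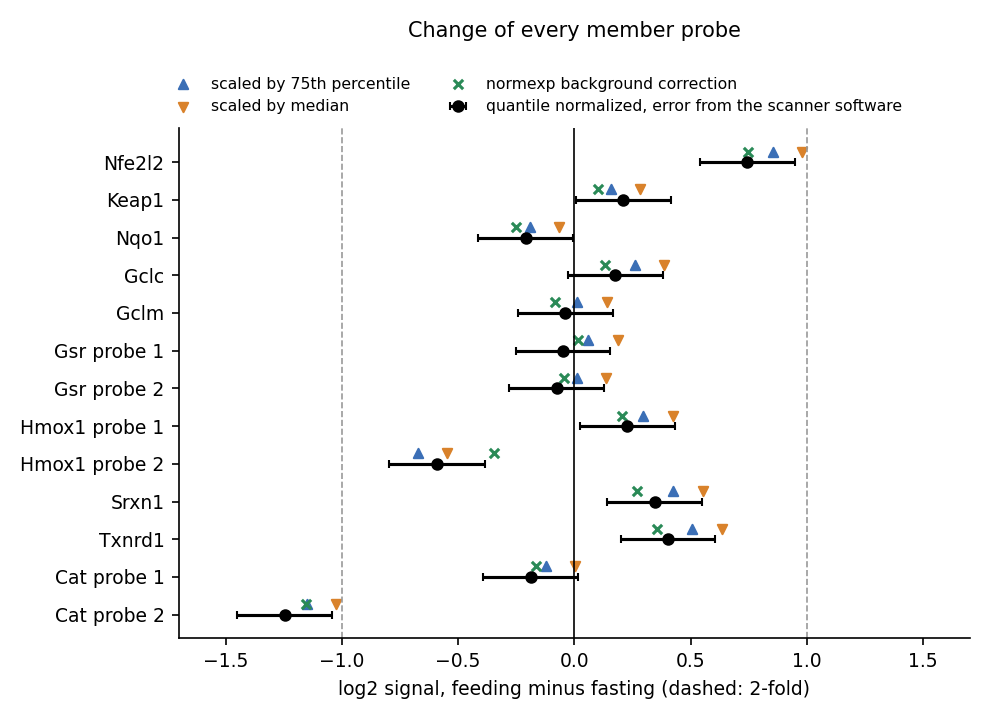
Difference in log2 signal, feeding minus fasting (horizontal axis), of each of the 13 probes; the black point is the quantile normalized value with its error from the scanner software, the coloured marks are 3 other ways of processing, and dashed lines mark 2-fold. Of the 13 probes, 1 lies past 2-fold, the dimmer probe of Cat at -1.25, and Nfe2l2 comes closest to 2-fold on the other side.

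Catalase, which breaks down hydrogen peroxide in peroxisomes, was read by 2 probes designed for the same transcript, and they gave different answers. The brighter probe gave 34958 on the fasting array and 29772 on the feeding array, a difference of -0.19 ± 0.20, which became 0.0 with scaling by the median. The other had 26098 and 10892, a difference of -1.25 ± 0.20 or 2.37-fold lower, and it stayed past 2-fold under every scaling and background correction, with the smallest decrease at -1.03. This is the only one of the 13 probes past 2-fold, where 7.92% of the 21060 probes with a gene name and a signal well above background on at least 1 array were, and 4.83% were so downward. Both probes were bright, so the gap of 1.06 between them is far above the errors of the spots. Such a gap or a larger one was found in 5.74% of the 2788 transcripts with 2 probes above background on both arrays. Among the 494 transcripts whose probes were both in the brightest group, it was found in 0.405%. Both shares count Cat itself, and the second stands for very few transcripts. Which part of the transcript each probe reads was not analysed here.

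Hmox1, the inducible heme oxygenase, also had 2 probes of 1 transcript that disagreed. The brighter gave 2275 on the fasting array and 2590 on the feeding array, a difference of 0.23 ± 0.20. The other was less bright, with 271.4 and 157.7, and its difference was -0.59 ± 0.21, which shrank to -0.35 under the normexp background correction. The gap of 0.82 or a larger one was found in 10.01% of transcripts with 2 probes. The sign of Hmox1 therefore depends on the probe, and the mean of both probes was -0.18. In liver this gene is also expressed in macrophages. Of 9 macrophage markers 8 were measured, all well above background on both arrays, and none was past 2-fold. Upon feeding 7 of them were lower, or 5 with scaling by the median, with Adgre1 at -0.89 and Clec4f at -0.41, and their summed normalized signal was 79149 upon fasting and 60138 upon feeding. This sum adds probes whose levels are not comparable, and much of it is Csf1r, at 28722 and 20042, while Marco was at 0.20. Their part in the values of Hmox1 was not tested. In pooled tissue, fewer cells of a type and less RNA per cell cannot be told apart.

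**Figure D3:**
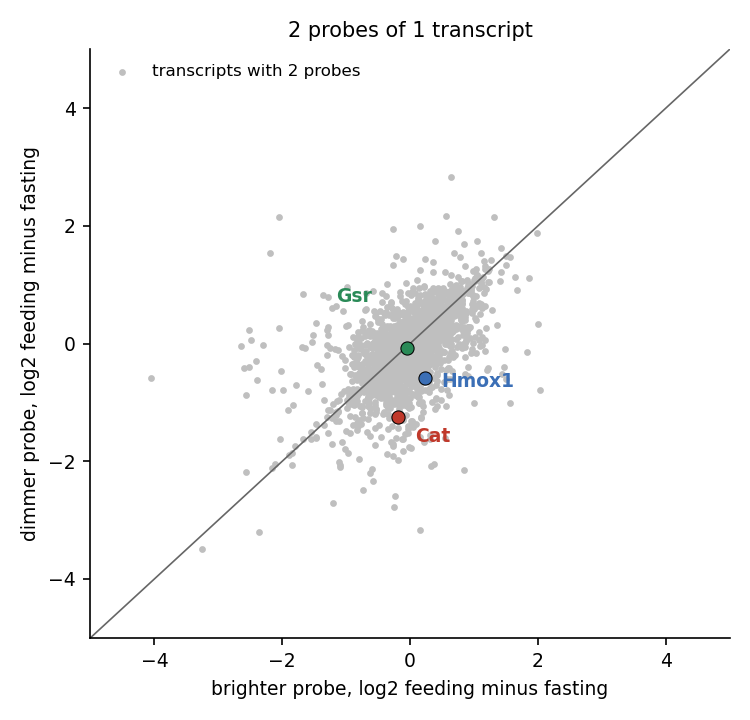
Difference in log2 signal, feeding minus fasting, of the brighter probe (horizontal axis) against the dimmer probe (vertical axis) of each of 2788 transcripts with 2 probes above background on both arrays; the line marks equal values. Gsr lies on the line (gap 0.03), while Hmox1 and Cat lie below it, with gaps of 0.82 and 1.06.

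Around these 10 genes, 74 further genes of the pathway were listed in 7 groups by role, and 73 of them were measured, all but Gsta1. Of the 73, 6 were past 2-fold, with 1 increase and 5 decreases. That is 8.22%, near the 7.91% of all genes. A further 60 of the 73 differed by less than 1.5-fold, and the median of the 73 was -0.10.

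The single increase was that of Osgin1, an oxidative stress-induced growth inhibitor known as an NRF2 target. It gave 2579 on the fasting array and 8935 on the feeding array, a difference of 1.83, or 3.56-fold. It stayed past 2-fold under the other scalings and the normexp correction, between 1.88 and 2.03. The other 17 measured genes of its group, the NRF2-linked detoxification enzymes and exporters, were all within 2-fold. The lowest was Abcc3, an efflux pump for conjugates, at -0.74. Of the 18, 13 were lower upon feeding, or 8 with scaling by the median. The glutathione S-transferases of this group are a family of similar sequences, so probes may cross-hybridise.

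Among the 10 partners and degraders of NRF2, Maff was at -1.21, with 556.5 on the fasting array and 215.3 on the feeding array. It encodes a small MAF protein of the kind that pairs with NRF2. Nfe2l1, which encodes the related factor NRF1, was at -1.02 on a dim probe with signals of 116.6 and 49.8. Under the normexp correction Maff was at -0.87 and Nfe2l1 at -0.38, so neither remained past 2-fold, and Nfe2l1 was also within it, at -0.99, with scaling by the median. Mafk, another small MAF, was at -0.84, and Bach1, which encodes a repressor that competes with NRF2 for the same element, was at -0.64, while Mafg was at 0.26. Of the genes that carry out degradation, Cul3, Rbx1 and Gsk3b ran from -0.15 to 0.39, Btrc was at -0.49 on a dim probe and at 0.38 by its other probe, and Sqstm1, the autophagy adaptor p62 that can sequester KEAP1, was at -0.03.

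Of the 14 genes of glutathione synthesis and peroxidases, 2 were past 2-fold, both lower upon feeding. Chac1, which encodes an enzyme that degrades glutathione, gave 2350 on the fasting array and 457.0 on the feeding array, a difference of -2.26 that was -1.86 under the normexp correction. Slc7a11, the cystine transporter that supplies cysteine for glutathione, was dim on both arrays, with 27.6 and 11.3, and its difference of -1.13 was -0.07 under the normexp correction. Ggct, which acts on the products of glutathione breakdown, was the highest of the group at 0.66. Of the 5 glutathione peroxidases, Gpx2 had the largest difference at -0.99 on a dim probe, with 171.5 on the fasting array and 74.0 on the feeding array. It was at -1.10 with scaling by the 75th percentile, past 2-fold, and at -0.48 under the normexp correction. Gpx1, Gpx3, Gpx4 and Gpx7 ran from -0.24 to 0.03.

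Of the 14 thioredoxins, peroxiredoxins and their partners, 1 was past 2-fold, Sesn1, a sestrin of the stress response, at -1.07, with 1608 on the fasting array and 724.0 on the feeding array. It was at -0.92 with scaling by the median and at -0.93 under the normexp correction, both within 2-fold. Txnip, which binds and inhibits thioredoxin, was at -0.97 by its brighter probe and at -1.86 by its other probe. The 6 peroxiredoxins, a family that includes the enzymes sulfiredoxin restores, ran from -0.17 to 0.17 by their brightest probes.

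No gene of the remaining groups was past 2-fold. The 4 superoxide dismutase genes, counting the copper chaperone Ccs, had Sod3 as the largest difference at -0.49. The 6 genes of NADPH supply, on which glutathione and thioredoxin reductases draw, ran from -0.39 for Idh1 to 0.26 for Me1, of which another probe was at -0.37. The 7 genes of heme and iron handling ran from -0.34 for Fech to 0.09, with the ferritin genes Fth1 and Ftl1 at 0.0 and 0.04.

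**Figure D4:**
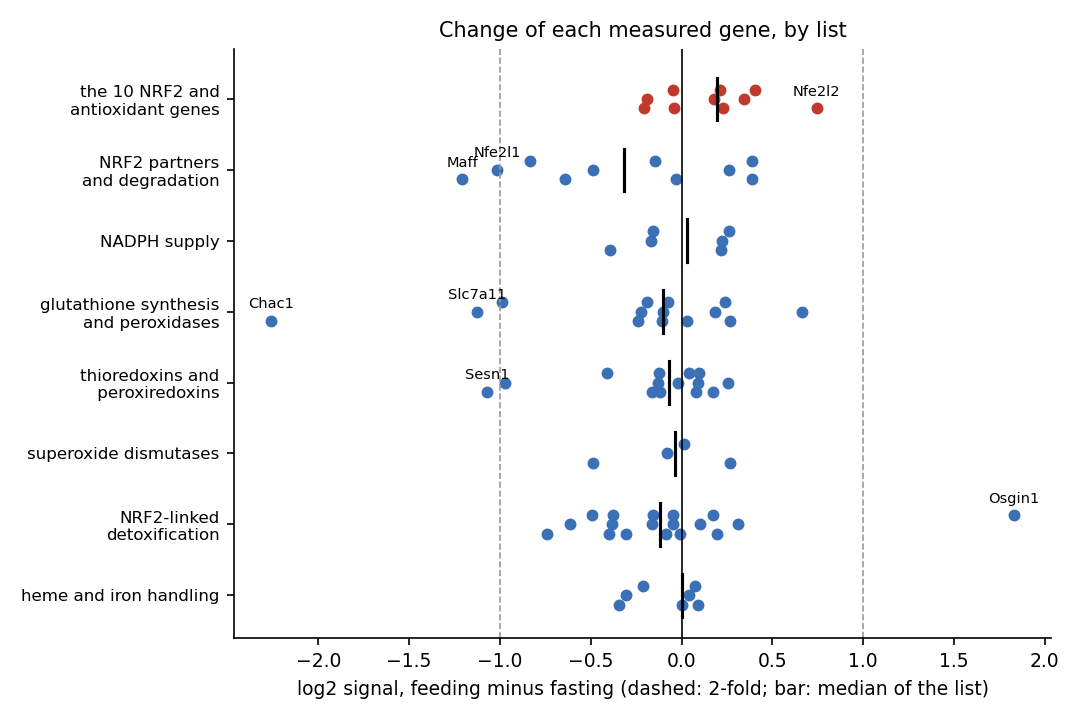
Difference in log2 signal, feeding minus fasting (horizontal axis), of each measured gene, with the 10 NRF2 and antioxidant genes on top and 73 further genes in 7 groups below; the short bar is the median of a group, dashed lines mark 2-fold and genes past it are named, as is Nfe2l2. Most points lie within 2-fold, with Chac1 at -2.26 and Osgin1 at 1.83 as the farthest on either side.

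The tissue matched its label, since all 8 hepatocyte markers were well above background on both arrays, with albumin (Alb) at 159091 on the fasting array and 141790 on the feeding array, and none was past 2-fold. The largest difference was that of Tat, a tyrosine-degrading enzyme, at -0.97, and at -1.02 under the normexp correction, past 2-fold. Of the markers of other cells 3 were past 2-fold, where 7.91% of all genes were. Sox9 of bile duct cells was at 2.11, while the other 4 markers of that list ran from -0.46 to 0.19. The 0.19 is a lower bound for Krt7, whose dim probe was not well above background on the fasting array. Pecam1 of endothelium was at -1.04 (-0.98 with scaling by the median and -0.79 under the normexp correction). The pancreatic Prss2 was at least 2.59-fold higher on a dim probe that was not well above background on the fasting array, and that call was lost under the normexp correction, where its log2 difference was 0.42. Of the markers of stellate cells, red blood cells and leukocytes none was past 2-fold, though Reln of stellate cells, at -0.97, was at -1.08 with scaling by the 75th percentile. Each array had 44397 spots, of which those for transcripts stood well above background in 63.1% of cases on the fasting array and in 72.3% on the feeding array, and both arrays were read in the same scan.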

How the data were processed

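The authors hybridised Cy3-labelled RNA from pooled livers to Agilent's Whole Mouse Genome design and read spots with Feature Extraction 11.0.1.1. The deposited intensities per spot are not normalized between arrays. The deposited value table of the series equals the mean local background of the same spot for 44397 of 44397 spots on each array, within rounding, and was not used as expression. The spot flags in the files, deposited as 0 or 1, served as filters.

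Controls and outlier spots (123 upon fasting, 98 upon feeding) were left out, and log2 processed signals were averaged per probe and quantile normalized (limma 3.58.1 in R 4.3.3). Of 39402 probes, 27218 (69.1%) were named through RefSeq transcripts of GRCm38.p6, and the array design's older build was not used for coordinates. Each gene is represented by the probe of highest mean log2 signal, kept if that probe stood well above background on either array. Where it did so on 1 array only, the difference is a lower bound against the dimmest probes that did, or 0 where that bound turned the sign. Genes were called at the methods' 2-fold threshold. Every member was named with every probe. From each further list the genes past 2-fold and the largest difference well above background on both arrays were named, and others were chosen after their values were seen. The members and lists were chosen with earlier results of these data known. The number of arrays limits the precision. The procedure was tested on data simulated from the fasting array alone, so that test did not cover a difference in background between the arrays. The alternatives were other scalings, a normexp correction with an offset of 50 on the median signal, other filters, thresholds and probe choices. Naming probes by a gene name column was planned and not run, because the files used here hold no such column.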

Additional observations from a re-analysis of the deposited data

How the results depend on the processing

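No paired analysis was possible because each group has 1 array, and no array could be left out for the same reason. Of the 80 values that 10 genes had under 8 alternatives, 66 moved by less than the SD of replicate spots and 14 by more. Of the 14, 9 were with scaling by the median, and 6 of the genes kept their sign under all 8. Many of the 66 had no room to move. All 13 probes were well above background on both arrays, so changing the filter or the lower bound returned the same value. The mean of probes could change only the 3 genes with 2 probes. None of the 10 was past 2-fold under any other scaling, background correction, filter or probe mean; 1 was at 1.5-fold (Nfe2l2), and 1 (Cat) where any probe of a gene past 2-fold sufficed, an alternative chosen after seeing the data. The median of the 10 was 0.33 with scaling by the median, 0.068 with the mean of a gene's probes and 0.068 with its dimmest probe (also chosen after seeing the data). Of the 73 further genes, 2 in place of 6 were past 2-fold under the normexp correction, 13 at 1.5-fold and 2 at 3-fold. Of all genes, 1292 were past 2-fold (537 higher, 755 lower), 1365 with scaling by the median (717 higher, 648 lower), 1635 without the lower bound (876 higher, 759 lower), 527 under the normexp correction, 2366 without a filter on dim probes, 3450 at 1.5-fold and 469 at 3-fold. Differences of dim probes depend most on the background correction. The normexp correction used here adds an offset of 50 to the signals of both arrays. By arithmetic, such an offset shrinks the log2 differences of probes with signals near or below it. Fewer genes past 2-fold under this correction are therefore no separate evidence that calls on dim probes are unsound. How much of the fall is due to the offset was not tested.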

Other observations

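Further genes next to the antioxidant system were looked at after the values were seen, so they are descriptions. Of 15 genes of selenium use and selenoproteins, the class to which thioredoxin reductase belongs, 11 were higher upon feeding. The median of all genes was 0.0. With scaling by the median 14 were, and the median of all genes was then 0.09. After quantile normalization 1 was past 2-fold, where 7.91% of all genes were. This was Sephs2, which makes the selenium donor for selenocysteine. It gave 166.4 on the fasting array and 542.1 on the feeding array, a difference of 1.88 (1.29 under the normexp correction). Pstk, a kinase of the same route, was at 0.86, but at 1.03 and so past 2-fold with scaling by the median. Secisbp2, which takes part in reading a stop codon as selenocysteine, was at 0.71 by its brighter probe and at 0.29 by its other probe. The lowest on this list was Selenow at -0.26. Selenoproteins of the groups above were not counted in it. Of these, Gpx1, Gpx2, Gpx3, Gpx4 and Txnrd2 were at -0.24, -0.99, -0.19, -0.08 and -0.12, while Txnrd1 and Txnrd3 were at 0.40 and 0.08.

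Of 9 measured peroxisomal oxidases, which produce the hydrogen peroxide that catalase removes, only Dao was past 2-fold, at least 2.74-fold higher on a dim probe that was not well above background on the fasting array (a log2 difference of 0.40 under the normexp correction), and Pipox was the lowest at -0.32. Of 15 peroxisome import and proliferation genes none was past 2-fold, with Pex11a at -0.98 and Pex10 at 0.86. Among 9 genes of cysteine and sulfur supply, 1 was past 2-fold. This was Ahcy, which hydrolyses S-adenosylhomocysteine, at -1.47 and -1.60 by its 2 probes. Csad, an enzyme of taurine synthesis, was at -0.76. The counts for these short lists stand beside 7.91% of all genes past 2-fold, and none is read as a result about its list.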
